A study of Homo sapiens with 10 samples.

Results

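The mitochondrial genome encodes 7 subunits of respiratory complex I: MT-ND1, MT-ND2, MT-ND3, MT-ND4, MT-ND4L, MT-ND5 and MT-ND6. These 7 genes, found by their Ensembl identifiers, were all present among the 20327 genes of each deposited table. The mRNA of MT-ND6 is encoded on the light strand and the other 6 on the heavy strand. The family was proposed with the fold changes of both experiments known, so its changes are given as a description.

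RNA was measured by sequencing of mRNA libraries from hTERT RPE-1 cells, a wild-type human retinal pigment epithelium line immortalised with telomerase, and a single line in all samples. All cells had been held for 48 h in medium with 0.1% serum. In the first experiment, 3 libraries from cells given the vehicle DMSO for 30 min were compared with 3 from cells given 200 µM merbarone for 30 min. In the second, 2 libraries from untreated cells, which had received no vehicle, were compared with 2 from cells given 200 µM merbarone for 2 h. Merbarone is a catalytic inhibitor of type II topoisomerases, enzymes that relieve torsion and tangles in DNA, and the series concerns DNA supercoiling and pausing of RNA polymerase II at promoters. The labels number the replicates but do not say what a number shares or whether libraries came from separate cultures, so p-values measure the spread between these libraries, which may be technical.

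Complex I takes electrons from NADH, passes them to ubiquinone and pumps protons across the inner mitochondrial membrane. Its core membrane arm is made inside the organelle, and many further subunits are encoded in the nucleus and imported. Both strands of the circular mitochondrial genome are copied by a dedicated polymerase into long polycistronic RNAs, which are cut at the tRNAs that lie between most mRNAs, and many of the mRNAs then receive a poly(A) tail. MT-ND6 is the only mRNA of the light-strand transcript, and its mRNA is known to lack a stable tail, which matters for libraries selected on poly(A).

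The 6 heavy-strand genes lie along the GRCh37 mitochondrial chromosome in the order MT-ND1 (chrM:3307-4262), MT-ND2 (chrM:4470-5511), MT-ND3 (chrM:10059-10404), MT-ND4L (chrM:10470-10766), MT-ND4 (chrM:10760-12137) and MT-ND5 (chrM:12337-14148). MT-ND6 (chrM:14149-14673) lies on the opposite strand. Each is a single coding exon without introns. The lengths implied by the deposited values were 100.04% of these annotated lengths for all 13 mitochondrial mRNAs. The sense strand of MT-ND6 was 35.6% G and 7.05% C, while those of the other 6 held 9.50% to 12.1% G and 29.5% to 36.0% C. The last bases of each gene, read from the GRCh37 sequence on the gene's own strand, are shown because the tail completes the stop codon where the gene ends inside one. Capitals mark the bases of the last codon that the gene itself encodes.
MT-ND1: atctccagcattccccctcaaaccTA
MT-ND2: tccccttttatactaataatcttaT
MT-ND3: caaaaaggattagactgaaccgaaT
MT-ND4: gacatcattaccgggttttcctctT
MT-ND4L: cataacctaaacctactccaatgcTAA
MT-ND5: atcctaaccctactcctaatcacaTAA
MT-ND6: gtaattgagattgctcgggggaatAGG
MT-ND2, MT-ND3 and MT-ND4 end on a single T and MT-ND1 on TA, so 4 of the 7 depend on the tail for a complete stop codon. MT-ND4L and MT-ND5 encode a full TAA, and MT-ND6 ends on AGG.

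A pair of junctions bears on how reads can be assigned. MT-ND4L and MT-ND4 are carried by 1 bicistronic mRNA and share 7 bases, in capitals in the heavy-strand-encoded sequence at chrM:10745-10781. MT-ND5 and MT-ND6 abut tail to tail without a gap. At chrM:14134-14163 on the plus strand, lower case is the end of MT-ND5 and capitals are the complement of the end of MT-ND6.
MT-ND4L/MT-ND4: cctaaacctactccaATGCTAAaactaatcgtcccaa
MT-ND5/MT-ND6: ctcctaatcacataaCCTATTCCCCCGAGC
The MT-ND5 mRNA is known to run past its coding end into sequence antisense to MT-ND6. The kit keeps the strand, but whether the authors counted by strand is not given in the sources used here. Without strand, reads of MT-ND6 and of transcripts antisense to it cannot be told apart.

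Recovered library totals were 26633780 to 38225538 reads in the first experiment and 11956652 to 13691014 in the second. Every member had at least 3608 reads in every library, a counting error of at most 1.66% (CV), while the CV between libraries of a group was 0.257% to 17.8%. In the second experiment the 2 libraries lay about as close as counting error or closer for MT-ND1, MT-ND2, MT-ND3 and MT-ND6 untreated and for MT-ND5 and MT-ND6 after merbarone, so these SDs may understate the error. Of 12 markers of retinal pigment epithelium, BEST1, OTX2, PMEL, KRT8 and KRT18 were above 1 RPKM in all 10 libraries, MITF and SERPINF1 lay between 0.154 and 0.425 RPKM, and RPE65, RLBP1, TYR, TYRP1 and TTR stayed below 0.1 RPKM. Of the fibroblast and mesenchyme markers, VIM (560.3 to 1105 RPKM), THY1 (55.3 to 80.9 RPKM) and COL1A1 (1.48 to 5.92 RPKM) were present and COL1A2 was near 0. The blood and endothelial genes HBB and CDH5 were at 0 in all 10 libraries, and PTPRC had at most 25 reads. BEST1, KRT8 and KRT18 were higher in all libraries of the second experiment than of the first, with KRT18 at a mean of 17.2 against 63.1 RPKM, and the part of such differences in levels set across experiments was not tested.

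Levels are given in RPKM, reads per kilobase of gene scaled to the reads of the library, so that mitochondrial genes of different length can be compared. Reads that align as well to nuclear copies (below) could shift these levels unequally between the genes, which was not tested. For most nuclear genes the length used was the whole gene with its introns, so their levels are not set against the members. MT-ND4 (1719 to 2415 RPKM) and MT-ND3 (1463 to 2388 RPKM) reached the highest values over the 10 libraries, and MT-ND2 (143 to 439 RPKM) the least in every group. In DMSO the order by mean was MT-ND3, MT-ND4, MT-ND4L, MT-ND1, MT-ND5, MT-ND6 and MT-ND2. The ranges of MT-ND3 and MT-ND4 overlapped there, as did those of MT-ND1 and MT-ND5, and the other neighbours did not. In untreated cells MT-ND4 was first, MT-ND5 stood above MT-ND1, and the ranges of no neighbours overlapped, with 2 libraries behind each range. MT-ND4L and MT-ND4, from the same bicistronic mRNA, thus differed in level in DMSO, at 1656 ± 51.3 and 1959.55 ± 165 RPKM (SD, n = 3).

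**Figure D1:**
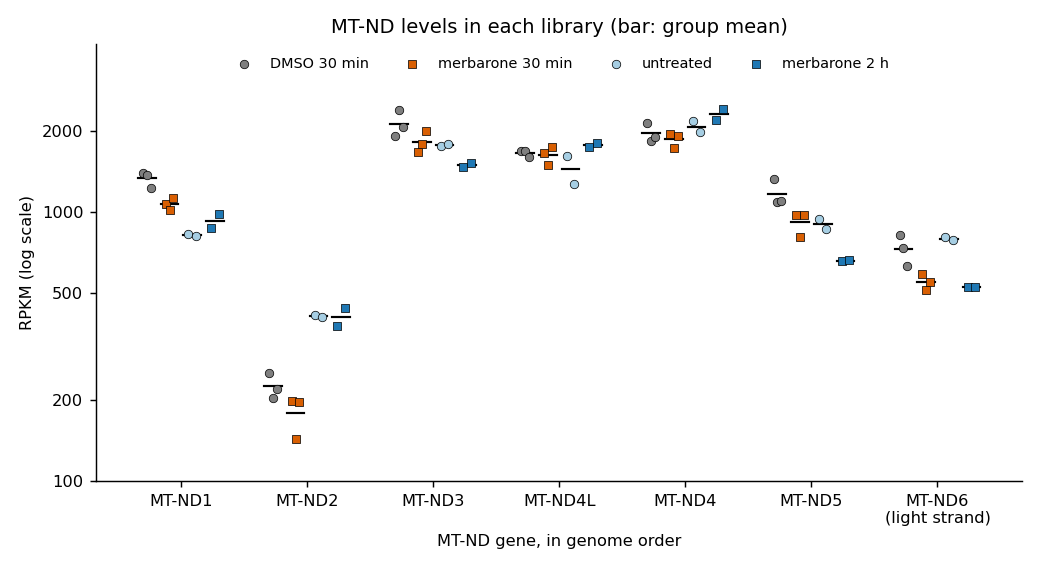
RPKM (log scale) of the 7 MT-ND genes in genome order, with 1 point per library and a bar at each group mean (3 DMSO, 3 merbarone 30 min, 2 untreated, 2 merbarone 2 h). MT-ND6 and MT-ND5 lie lower with merbarone in both experiments, while MT-ND2 and MT-ND1 differ most between the controls.

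At 30 min no member passed the test, but all 7 lay below DMSO on average, and in 4 of them every merbarone library was below every DMSO library. These were MT-ND1, MT-ND2, MT-ND5 and MT-ND6. Such a separation in the lower direction was seen in 1.4% of the 6500 genes tested. By limma with Benjamini-Hochberg adjustment 0 of the 7 were called, against 0.0154% of all genes (1 gene). Without adjustment, limma gave p under 0.05 for 3 members, MT-ND1, MT-ND5 and MT-ND6, and for 24 of the 6500 genes. With the replicate number as a block these counts were 5, with MT-ND2 and MT-ND3 added, and 208, and after adjustment 0 of the 7 were called. The lowest adjusted p of a member by limma with the block was 0.574, for MT-ND6. The test on recovered reads by limma's voom also called 0 of the 7. Voom with the block, chosen after seeing the data, again called 0 of the 7. Its lowest adjusted p-values were 0.0759 for MT-ND6 and 0.0849 for MT-ND5.

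Among the antiporter-like subunits, which form the proton channels of the membrane arm, MT-ND5 stood at 1321, 1084 and 1098 RPKM in the DMSO libraries and at 972, 808 and 974 RPKM with merbarone. The highest merbarone library was below the lowest DMSO library. The log2 difference was -0.35 ± 0.12 (SE), with an adjusted p of 0.999983 by limma and of 0.606 with the replicate block. MT-ND2, another subunit of this kind, stood at 253, 205 and 220.1 RPKM in DMSO and at 199, 143 and 197 RPKM with merbarone. Its groups were separated by less than their own spread, and the log2 difference was -0.34 ± 0.16, or -0.18 without merbarone 30 min replicate 2. MT-ND4, the last of the 3, stood at 2146, 1831 and 1901 RPKM in DMSO and at 1946, 1719 and 1921 RPKM with merbarone, and its groups overlapped.

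MT-ND1, which helps to form the ubiquinone site, stood at 1396, 1376 and 1231 RPKM in DMSO and at 1067, 1013 and 1124 RPKM with merbarone. All 3 merbarone libraries were lower, with a log2 difference of -0.32 ± 0.09 (SE). Under quantile normalization, which gives genes of the same rank the same value in every library, this difference was 0, as were those of MT-ND4 and MT-ND4L, and MT-ND5 stood at -0.13 and MT-ND3 at -0.06. MT-ND2 (-0.35) and MT-ND6 (-0.30) stayed low under it. Its neighbour in the complex, MT-ND3, whose loop moves as the enzyme switches between its resting and active forms, stood at 1917, 2388 and 2072 RPKM in DMSO and at 1673.5, 1789.7 and 1998 RPKM with merbarone. These groups overlapped, although each merbarone library was below the DMSO library of the same number, and the log2 difference of -0.22 ± 0.12 became -0.13 without DMSO replicate 2. The short MT-ND4L stood at 1685, 1687 and 1597 RPKM in DMSO and at 1661, 1493 and 1745 RPKM with merbarone. Here the highest value of all was a merbarone library, and the log2 difference was -0.02 ± 0.09.

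MT-ND6, the light-strand member, stood at 820.5, 733 and 630.0 RPKM in DMSO and at 590.2, 513 and 548 RPKM with merbarone. The groups did not overlap, and all 3 numbered pairs were lower by 0.20 to 0.51 on the log2 scale. Its log2 difference of -0.40 ± 0.12 was the lowest of all 6500 genes tested, and MT-ND5 and MT-ND2 came next. The rank depended on how low genes were treated: with a pseudocount of 0.1 on the same genes MT-ND6 was 4th, and by voom on recovered reads, which also tested more genes, 118th of 14012. Among the 51 nuclear genes that averaged 100 RPKM or more, differences ranged from -0.10 to 0.19. For most nuclear genes the RPKM uses a length with introns, so this cut need not pick the most abundant mRNAs. MT-ND1, MT-ND2, MT-ND3, MT-ND5 and MT-ND6 all lay below every one of the 51, as did MT-CO2, MT-ATP6 and MT-CYB among the other mitochondrial mRNAs. In bulk RNA, fewer mitochondria and less RNA per mitochondrion cannot be told apart.

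At 2 h the members parted: MT-ND6 and MT-ND5 fell, and none rose past the threshold. MT-ND6 fell by 33.8% and MT-ND5 by 26.8% relative to untreated cells. By limma 2 of the 7 were called, both lower, against 7.1% of the 6620 genes tested called lower, 5.98% called higher and 13.1% in either direction. Libraries did not overlap for 6 of the 7, with 3 higher and 3 lower, but with 2 libraries a group this held for 61.5% of all genes, 22.5% higher and 39% lower.

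MT-ND6 stood at 804 and 786 RPKM in untreated cells and at 525 and 527 RPKM after merbarone. The treated libraries nearly coincided, far below both controls. The log2 difference was -0.60 ± 0.11 (SE), with an adjusted p of 0.00980 by limma. MT-ND5, its tail-to-tail neighbour on the opposite strand, stood at 943 and 862 RPKM untreated and at 655 and 664 RPKM after merbarone. Its groups were also far apart, at a log2 difference of -0.45 ± 0.11 with an adjusted p of 0.0326. Without untreated replicate 1 or replicate 2 the log2 difference was -0.58 and -0.61 for MT-ND6 and -0.39 and -0.52 for MT-ND5. There the merbarone pair, nearly coincident for both genes, alone gives the spread, so no call is read from these fits. Neither call held without merbarone 2 h replicate 1 or replicate 2. In those fits the untreated pair alone gives the spread and the lone library is assumed to vary like it. The log2 differences were then -0.59 and -0.60 for MT-ND6 and -0.44 and -0.46 for MT-ND5.

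The other members were not called. MT-ND4L stood at 1610.1 and 1269.7 RPKM untreated and at 1749 and 1804 RPKM after merbarone. Both treated libraries were higher, and the untreated libraries differed from each other by more than the lower treated library did from the higher control. The log2 difference of MT-ND4L was 0.31 ± 0.13 (adjusted p = 0.147 by limma). It was 0.48 without untreated replicate 1 and 0.14 without untreated replicate 2. MT-ND4 stood at 2169 and 1974 RPKM untreated and at 2194.5 and 2415 RPKM after merbarone, a log2 difference of 0.15 ± 0.11. MT-ND1 stood at 829.7 and 817 RPKM untreated and at 869 and 983 RPKM after merbarone, a log2 difference of 0.17 ± 0.12. Both of these were higher in both treated libraries without passing the test.

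MT-ND3 stood at 1762 and 1784 RPKM untreated and at 1463 and 1525 RPKM after merbarone. Both treated libraries were lower, with a log2 difference of -0.25 ± 0.11 (adjusted p = 0.150 by limma). MT-ND2 stood at 414 and 407 RPKM untreated and at 376 and 439 RPKM after merbarone, and its groups overlapped. Of the 64 nuclear genes that averaged 100 RPKM or more, whose median log2 difference was -0.25, none lay at or below MT-ND6 and 7 lay at or below MT-ND5. MT-ND6 was thus the lowest of the abundant genes, and MT-ND5 lay within their range.

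**Figure D2:**
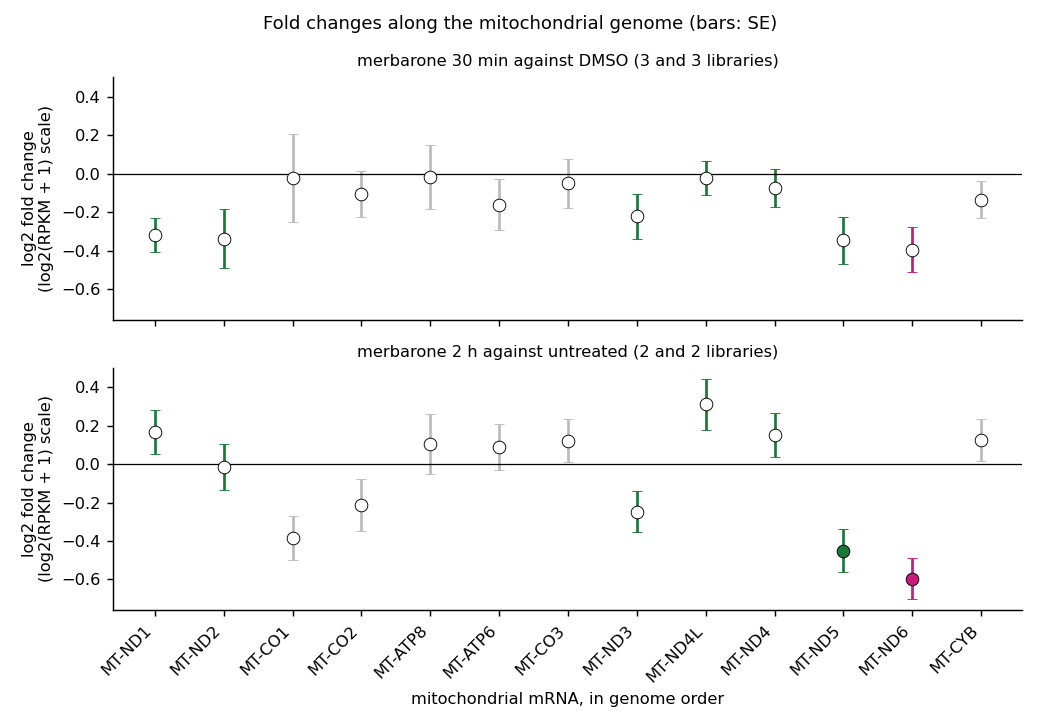
Log2 fold change (log2(RPKM + 1) scale) with its SE for the 13 mitochondrial mRNAs in genome order, at 30 min (upper panel) and 2 h (lower panel); green is a heavy-strand MT-ND gene, magenta MT-ND6 and grey another mRNA, and a filled point passed the test. At 2 h only MT-ND5 and MT-ND6 are filled, and at 30 min no point is.

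The 6 other mitochondrial mRNAs, all on the heavy strand, encode subunits of complexes III, IV and V. None of the 6 was called by limma at either time, and at 30 min none had separated groups, against 1.4% of all genes with lower treated libraries. Their median log2 difference at 30 min was -0.08, against -0.32 for the MT-ND genes and -0.01 for all genes. At 2 h the medians were 0.10 for these 6, -0.01 for the MT-ND genes and -0.05 for all genes. MT-CO1, a catalytic subunit of complex IV, had the lowest value of the 6 at 2 h, with a log2 difference of -0.38 ± 0.12 (adjusted p = 0.0616 by limma). MT-CO1 was called by limma with the replicate block (adjusted p = 0.00649) and with the correction for GC content (0.0192). With these settings 32.2% and 27.4% of all genes were called. MT-CYB, the next heavy-strand mRNA after MT-ND5 with MT-ND6 lying between them, stood at 0.13 ± 0.11. The low values at 2 h therefore did not extend to the heavy-strand gene beyond MT-ND6.

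MT-ND6 was compared within each library with the 6 heavy-strand members, as the log2 ratio to their geometric mean. This ratio does not depend on library scaling. If reads were counted without strand, heavy-strand RNA antisense to MT-ND6 could be among its reads, which was not tested. The ratio is therefore one between genes and need not measure the strands. In the first experiment the ratio was -0.57, -0.64 and -0.82 in DMSO and -0.79, -0.81 and -0.96 with merbarone. Each merbarone library was lower than its numbered partner, but the groups overlapped. The mean moved from -0.68 ± 0.13 to -0.85 ± 0.09 (SD, n = 3), so that MT-ND6 stood at 0.626 and 0.554 of the heavy-strand mean.

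In the second experiment the ratio was -0.48 and -0.41 in untreated cells and -0.97 and -1.08 after merbarone. The groups lay well apart, and MT-ND6 moved from 0.735 to 0.491 of the heavy-strand mean. The choice of denominator mattered: against MT-ND5 alone, the difference between treated and control was -0.05 at 30 min and -0.15 at 2 h, in place of -0.18 and -0.58. MT-ND6 thus parted from most of the heavy-strand members but much less from MT-ND5. No p-value is given for scores over the members, since the family was chosen with results known.

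Position along the heavy strand was summarised as the slope of log2 RPKM on gene midpoint over the 6 heavy-strand members. It was positive in every library, with MT-ND2 low near the start of the transcript and MT-ND3, MT-ND4L and MT-ND4 high in its later part. Of the 50-base windows of MT-ND2, 96.4% have a near-identical nuclear copy (below). The part of reads lost to such copies in the slope was not tested. In the first experiment it was 0.170, 0.170 and 0.173 log2 RPKM per kb in DMSO and 0.184, 0.193 and 0.184 with merbarone. The groups did not overlap, with merbarone higher. In the second it was 0.153 and 0.137 in untreated cells and 0.124 and 0.106 after merbarone, lower in both treated libraries. The direction therefore differed between the experiments, and the difference between these changes was not tested. Over all 12 heavy-strand mRNAs the treated-minus-control difference was 0.0074 at 30 min and -0.0013 at 2 h, in place of 0.016 and -0.030 over the 6 members. The log2 ratio of MT-ND5 to MT-ND1 per kb, which uses only the ends, differed by -0.0028 and -0.065. The changes were not ordered by distance along the polycistron. At 30 min the lowest heavy-strand values were those of MT-ND1 and MT-ND2 near its start and of MT-ND5 near its end. At 2 h MT-ND4L stood at 0.31 and MT-ND5 at -0.45 on the log2 scale, with only MT-ND4 between them.

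The 7 genes together took 0.855%, 0.773% and 0.754% of the reads in the DMSO libraries and 0.706%, 0.628% and 0.719% with merbarone for 30 min. All merbarone libraries were lower, and the mean share moved from 0.794% ± 0.053 to 0.684% ± 0.049 (SD, n = 3). In the second experiment the share was 0.744% and 0.690% in untreated cells and 0.674% and 0.727% after merbarone, and the groups overlapped. The 95% Wilson intervals of these shares were at most 0.00469 percentage points to either side, far narrower than the spread between libraries. They cover counting error only, since reads without molecular identifiers are not independent molecules. All 13 mitochondrial mRNAs together took 1.38% ± 0.096 of the reads in DMSO and 1.23% ± 0.061 with merbarone for 30 min.

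**Figure D3:**
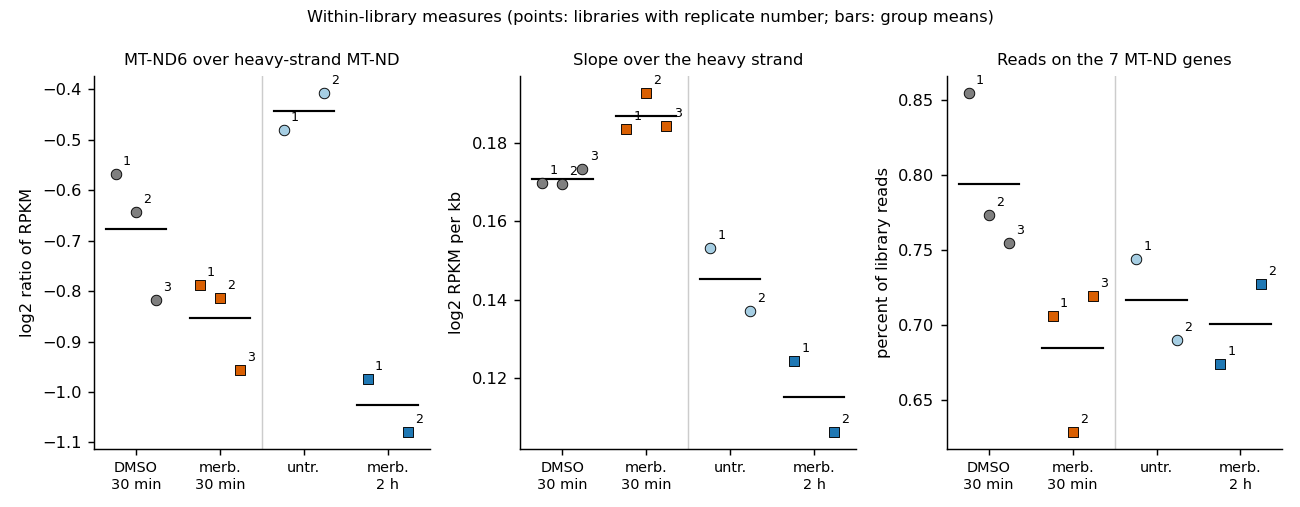
For each library, numbered by replicate, the log2 ratio of MT-ND6 to the heavy-strand members (left), the slope of log2 RPKM per kb over the 6 heavy-strand members (middle) and the percent of reads on the 7 genes (right), with bars at group means; the grey line divides the experiments and no axis starts at 0. The ratio is lower with merbarone in every numbered pair, while the slope moves in opposite directions in the 2 experiments.

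The effects at 2 h and 30 min were set against each other in 1 fit over all 10 libraries, in which time, kind of control and experiment cannot be told apart. By limma 0 of the 7 members differed, against 1.63% of 6558 genes called, and the unadjusted p was under 0.05 for MT-ND1 alone among the members. MT-ND1 had the largest difference, 0.49 ± 0.14 (log2, 2 h minus 30 min), an adjusted p of 0.139 by limma and one of 0.0296 once the replicate number was added as a block, with which 19.1% of all genes were called. The difference for MT-ND6 was -0.20 ± 0.17 and for MT-ND5 -0.10 ± 0.18, both smaller than 2 SE. For neither gene were the effects at 30 min and 2 h shown to differ in size.

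The controls themselves differed between the experiments. MT-ND2 had a mean of 226 ± 24.8 RPKM in DMSO (SD, n = 3) and 411 ± 5.37 RPKM in untreated cells (SD, n = 2), with no overlap. MT-ND1 had 1334 ± 89.8 and 823 ± 8.96 RPKM, also without overlap but in the opposite direction. MT-ND3 and MT-ND5 were likewise lower in every untreated library, and MT-ND4, MT-ND4L and MT-ND6 overlapped. Vehicle, experiment and depth go together here and cannot be told apart.

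Parts of the mitochondrial genome have near-identical nuclear copies, to which reads can align as well, and the authors' handling of such reads is not given in the sources used here. By BLAST against GRCh37, 96.4% of the 50-base windows of MT-ND2 had a nuclear copy with at most 2 mismatches, the highest share among the members. Its best copy, on chromosome 1 (chr1:565020-566061), covered all 1042 bases at 98.4% identity. The share was 68.55% for MT-ND4, 56.5% for MT-ND4L, 54.0% for MT-ND6, 37.8% for MT-ND1, 35.6% for MT-ND5 and 6.4% for MT-ND3. Across the 13 mitochondrial mRNAs, which share libraries and are not independent, the log2 difference between the controls went with this share (Pearson r 0.748, Spearman rho 0.802). With windows of 100 bases r was 0.538, and with exact copies of 50 bases 0.466. Between the share of 100-base windows and the fold changes with merbarone, r was 0.139 at 30 min and 0.0157 at 2 h. The share of 50-base windows, which went most closely with the controls, was not set against these fold changes. The part of the copies in the levels and in the fold changes was not tested.

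**Figure D4:**
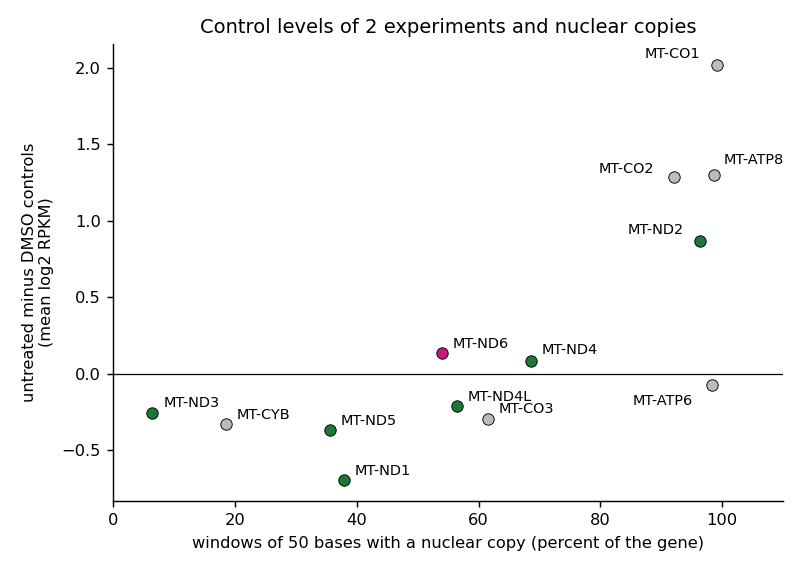
Difference in mean log2 RPKM between untreated and DMSO controls (vertical) against the percent of 50-base windows with a nuclear copy of at most 2 mismatches (horizontal) for the 13 mitochondrial mRNAs; green is a heavy-strand MT-ND gene, magenta MT-ND6 and grey another mRNA. MT-ND2 and 3 other mRNAs with shares above 90% lie above 0, while MT-ATP6, at a share of 98.4%, lies near it.

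Nuclear subunits of complex I, imported to be assembled with the MT-ND proteins, were read from the same fits. At 30 min 30 of the 37 passed the filter of a mean of 1 RPKM, and limma called 0, with log2 differences from -0.09 to 0.03 and a median of -0.02 against -0.01 for all genes. The lowest, NDUFB10 at -0.09, lay below MT-ND4 and MT-ND4L, but none reached the values of the other 5 MT-ND genes. Most of the list lay at a few RPKM, where the added 1 shrinks a change, so these sizes are not strictly comparable. At 2 h, 32 passed the filter and 5 were called, all lower, which is 15.6% against 7.1% of all genes. The list's median log2 difference was -0.18 against -0.05 for all genes, and 30 of the 32 were below 0.

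The 5 called nuclear subunits were small accessory proteins. NDUFS5 fell from 14.9 ± 2.19 to 10.2 ± 0.729 RPKM (SD, n = 2), a log2 change of -0.49 ± 0.12 (adjusted p = 0.0293 by limma). NDUFA1 fell from 11.7 ± 1.45 to 8.17 ± 0.528 RPKM. NDUFB10 fell from 22.7 ± 2.73 to 16.7 ± 0.986 RPKM. These changes were close in size to that of MT-ND5. NDUFA2 fell from 4.95 ± 0.527 to 3.59 ± 0.270 RPKM and NDUFB3 from 1.86 ± 0.0524 to 1.32 ± 0.0134 RPKM. Their changes in log2(RPKM + 1) were -0.37 and -0.30. At a few RPKM the added 1 shrinks a change, so these sizes are not set against those of the members. Of the core subunits of the peripheral arm, which hold the NADH site and the iron-sulfur clusters, 5 are given here, and none was called. NDUFS8 (-0.30 ± 0.11), NDUFS3 (-0.23 ± 0.09) and NDUFS7 (-0.13 ± 0.09) had the lower log2 differences, and NDUFV1 (-0.03 ± 0.11) and NDUFS1 (0.00 ± 0.07) the higher. With the replicate block 16 of the 32 nuclear subunits were called, NDUFS8 and NDUFS3 among them, against 32.2% of all genes.

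Of 16 assembly factors of complex I, 8 were tested at 30 min and 11 at 2 h, and limma called 0 at either time, against 13.1% of all genes at 2 h. With the replicate block 1 of the 11 was called at 2 h, against 32.2% of all genes. Of 22 genes for mitochondrial transcription and DNA, limma called 0 of 9 at 30 min. At 2 h 1 of 10 was called, a share near that of all genes. With the replicate block 5 of 10 were called, against 32.2% of all genes. The gene called without the block was TEFM, the elongation factor of the mitochondrial polymerase. The 2 untreated libraries had a mean of 1.19 ± 0.186 RPKM of TEFM and the merbarone libraries 1.68 ± 0.0143 RPKM (SD), a rise with an adjusted p of 0.0376 by limma. TFAM, which packages mitochondrial DNA and activates its promoters, was at 3.37 ± 0.471 untreated and 3.40 ± 0.177 RPKM after merbarone for 2 h. TOP2B, one of the enzymes that merbarone inhibits, was at 1.83 ± 0.273 and 1.78 ± 0.098 RPKM. The polymerase POLRMT, its partner TFB2M and the mitochondrial topoisomerase TOP1MT stayed below the filter in both experiments and were not tested.

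Of 20 genes for processing and decay of mitochondrial RNA, 14 were tested in each experiment. At 30 min limma called 0 of them. At 2 h it called 1 of 14, against 13.1% of all genes. With the replicate block it called 7 of 14, against 32.2% of all genes. The gene called without the block was FASTKD5, which is needed to mature several mitochondrial precursors at junctions without a tRNA. FASTKD5 fell from 2.31 ± 0.0576 to 1.499 ± 0.264 RPKM (SD, n = 2). Its change in log2(RPKM + 1), which the added 1 shrinks at this level, was -0.41 ± 0.09 (adjusted p = 0.0183 by limma). SLIRP, which with LRPPRC stabilises heavy-strand mRNAs, had a log2 difference of 0.00 at both times. LRPPRC was at 1.00 ± 0.0545 and 1.02 ± 0.0303 RPKM at 30 min (SD, n = 3) and fell under the filter in the second experiment.

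**Figure D5:**
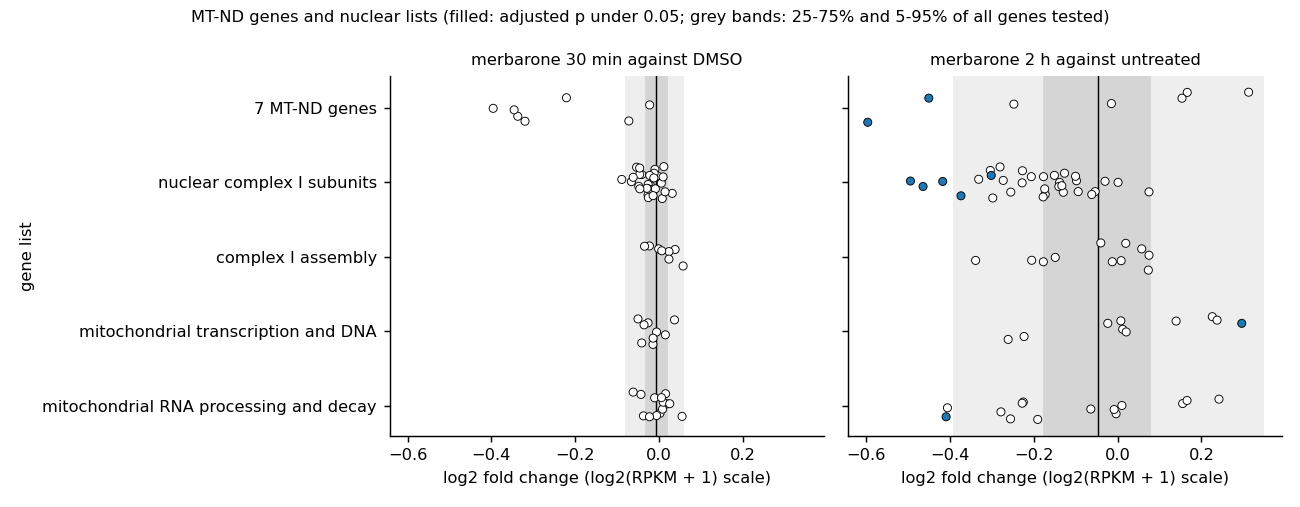
Log2 fold change (log2(RPKM + 1) scale) of the 7 MT-ND genes and the tested genes of 4 nuclear lists at 30 min (left) and 2 h (right), with 1 point per gene and filled points past an adjusted p of 0.05; vertical scatter within a row is for display, the line is the median of all genes tested and the grey bands span 25-75% and 5-95% of them. At 30 min, 5 MT-ND genes lie left of every listed nuclear gene, and at 2 h the MT-ND genes spread from -0.60 to 0.31. The added 1 shrinks the changes of genes at a few RPKM, as many of the listed nuclear genes are.

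Likeness to the heavy-strand members was measured as the Pearson correlation of a gene's log2(RPKM + 1) with their mean over the 10 libraries, after subtracting the mean of each experiment. Among 6545 nuclear genes the highest values were 0.773 for LRRC47, 0.735 for ADH5, 0.734 for PRRT3, 0.726 for ENSG00000268809, which has no symbol in the table used, and 0.715 for ARF6. None of these 5 was called at either time. They are the highest of 6545 values over only 10 libraries, and how high such values run among unrelated genes was not tested. By the same measure the members MT-ND2 (0.933) and MT-ND1 (0.851) were closest to the mean they belong to and MT-ND4L (0.372) farthest. MT-ND5 and MT-ND6, on opposite strands, had a value of 0.951 with each other, the highest of the 21 pairs of members. If reads were counted without strand, reads of the MT-ND5 mRNA could be among those of MT-ND6, which was not tested. MT-ND4L and MT-ND4, from 1 mRNA, had 0.739, and MT-ND4L and MT-ND6 had -0.38. These values rest on 10 libraries in which treatment and replicate number both vary.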

How the data were processed

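Per the file headers, the deposited values are RPKM, listed by Ensembl gene in a separate table for each library. The submitters' processing notes name Bowtie 1.2.0, deepTools 2.4.1, DESeq2 and edgeR and the builds hg19 and GRCh37, with no role given. Per the labels' protocols, the input was 150 ng of total RNA and the kit a stranded mRNA kit. The counter, annotation and strand setting are not given in the sources used here. Whole reads were recovered from the steps of the RPKM values for 17680 genes, 100% of those above 0, within a tolerance of 0.001 of a whole number. Totals were 11956652 to 38225538 reads.

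limma 3.58.1 in R 4.3.3 (lmFit, eBayes with trend) was run on log2(RPKM + 1), two-sided, with Benjamini-Hochberg adjustment over all genes averaging at least 1 RPKM and a threshold of 0.05. Each experiment was fitted alone and the difference over all 10 libraries. All 7 members passed the filter. Nuclear copies were found with BLAST 2.17.0, and Python 3.11.15 with SciPy 1.17.1 and matplotlib 3.10.9 did the rest. The fits and the recovery were tested on simulated data. Exact permutation tests of the scores over the members cannot go below p = 0.1 with 3 against 3 libraries or 0.333 with 2 against 2, and no p is printed for them. Replicate libraries differed by more than sampling noise (chi-square 4.00 to 61.1 per degree of freedom).

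The members and lists were chosen with earlier results of these data known. Named genes were the 7 members, the 6 other mitochondrial mRNAs, called list genes (at most 8 per list), 8 fixed factors and the 5 nuclear genes most like the heavy-strand members; 5 core subunits of the peripheral arm were added after their values were seen. Same-numbered libraries of the 30 min experiment deviated together (correlations 0.925, 0.646 and 0.605), so its numbers were taken to pair them. The main fits did not use this pairing, and the fits with the replicate block did. In the 2 h experiment, with 2 pairs, they are only numbers. Alternatives were another pseudocount or filter, other scalings, eBayes without trend, the replicate block, voom on recovered reads, 1 fit over all libraries, other definitions of the scores and leaving out each library. Chosen after seeing the data were a correction for GC content, that correction with the block, voom with the block, and both experiments combined.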

Additional observations from a re-analysis of the deposited data

How the results depend on the processing

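At 30 min, 0 of the 7 members were called by limma in all 19 alternatives, the replicate block included, where 0.123% of all genes were called. At 2 h the count of 2 became 0 with no filter, 1 with all 10 libraries in 1 fit (MT-ND6), 4 by voom with the replicate block, and 0 to 3 on leaving out a library. Quantile normalization called MT-ND1, MT-ND3 and MT-ND5, with MT-ND6 at an adjusted p of 0.0538 by limma, and 11.8% of all genes. The replicate block, under which 32.2% of all genes were called, and the GC correction, with 27.4%, each added MT-ND4L. By voom with the replicate block 25.6% of all genes were called, and in 1 fit over all 10 libraries 9.13%. Without a filter 0.315% of all genes were called, and the adjusted p of MT-ND6 was 0.134 by limma. The block raised the called nuclear subunits of complex I at 2 h from 5 to 16, and the counts of the other lists to 1, 5 and 7. For the difference between the effects, 1 member (MT-ND1) in place of 0 was called with quantile normalization, the replicate block, the block with the GC correction, and voom with the block, where 1.6%, 19.1%, 26.9% and 15.1% of all genes were called. No other call on the members changed with the block.

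The ratio against MT-ND5 alone was -0.0502 and -0.146. The slope changed to 0.0074 and -0.0013 over 12 mRNAs, and to -0.0028 and -0.065 by MT-ND5 over MT-ND1. As a share of summed RPKM, the members' change was -1.39 percentage points at 30 min and 0.293 at 2 h. Leaving out a library moved the 2 h share from -0.0432 to 0.0108. MT-ND2 at 2 h turned to 0.0057 with median scaling, 0.0234 with quantile normalization and 0.0047 with the GC correction, with or without the replicate block, and ranged from -0.13 to 0.10 without 1 library. Without 1 library, MT-ND4L at 30 min ranged from -0.0724 to 0.0403 and the MT-ND3 difference from -0.113 to 0.0456. The cause was not tested for any of these. With 2 libraries a group, the 2 h calls rest on limma's shared estimate of the spread.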
